A study of Mus musculus with 16 samples.

Results

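The comparison described here sets 2 arrays of liver RNA from Alb::GC mice fed a high fat diet (HFD) against 2 arrays from Alb::GC mice fed a low fat diet (LFD), out of 16 arrays in the series. The 4 arrays were taken by their labels, and no measured value entered the choice. The mice were FvB/n males. Alb::GC is known as a transgene in which the albumin promoter, active in hepatocytes, drives an active fragment of GADD34, so both diet groups carried it. Wildtype mice on the same diets, again with 2 arrays per diet, serve here only as the reference for differences. For LFD wildtype replicate 2 one label field mentions both genotypes, and the array was placed with wildtype after its description. Age, length of feeding and hour of collection are not in the labels. Nor do they say that the arrays of a group come from separate animals. The p-values therefore only set a difference against the spread between these arrays, pooled over the 4 diet groups. That spread could be technical.

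GADD34, the product of Ppp1r15a, guides a phosphatase to the translation factor eIF2α. Kinases such as PERK, the product of Eif2ak3, phosphorylate eIF2α when cells are stressed or starved of amino acids, which lowers general protein synthesis and raises translation of the transcription factor ATF4, the start of the integrated stress response (ISR). A fragment that keeps removing that phosphate dampens the response in hepatocytes. The liver on a fat-rich diet is known for altered lipid storage, sterol synthesis and bile acid handling, which are described below by gene role, together with the circadian clock and the folding machinery of the endoplasmic reticulum (ER).

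Each deposited value was a ratio around 1, given to 2 decimals, for 1 probe set on 1 array. What each ratio was taken against is not given in the sources used here, so no absolute level, detection call or order of levels between genes could be had, and the liver identity of the samples could not be checked from marker levels. Changes below are differences of log2(ratio + 0.05), HFD minus LFD, with the standard error of the limma fit to the 8 diet arrays, and the threshold was a Benjamini-Hochberg adjusted p under 0.05 over 22626 probe sets. Array medians lay between 0.96 and 0.98 in the 4 Alb::GC arrays. Log2 values correlated across probe sets at 0.486 between the LFD arrays and at 0.635 between the HFD arrays, against 0.14 to 0.206 between arrays of different diets.

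Several control probe sets moved with the diet. The log2 difference of the 3′ over the 5′ β-actin probe sets was 0.18 and -0.16 on LFD and -0.33 and -0.44 on HFD in Alb::GC mice. For Gapdh the difference was 0.16 and 0.04 on LFD against -0.23 and -0.15 on HFD. The 3 probe sets for 18S rRNA stood between 1.26 and 1.99 in LFD Alb::GC replicate 1, between 3.19 and 7.24 in LFD Alb::GC replicate 2 and between 0.09 and 0.22 in the HFD Alb::GC arrays. LFD Alb::GC replicate 2 thus stood apart in 18S rRNA, and in every one of these controls the HFD arrays lay below the LFD arrays, as the plot of the controls shows. Both genotypes shared this order, and diet and these RNA measures cannot be told apart. Controls for the transferrin receptor did not follow it. In Alb::GC mice its 3′ probe set overlapped between the diets, at 0.78 and 1.29 on LFD and 1.35 and 0.97 on HFD. Its 5′ probe set stood higher on HFD, at 1.01 and 0.29 against 1.30 and 1.13.

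**Figure D1:**
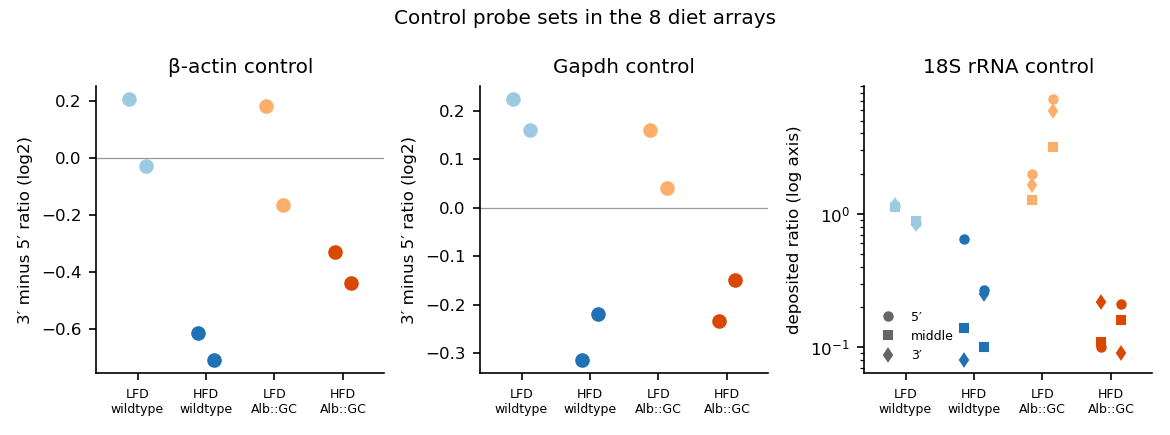
Control probe sets in the 8 diet arrays, by group, with 1 point per array in the left and middle panels (log2 difference of the 3′ and 5′ probe sets of β-actin and Gapdh) and 1 symbol per probe set and array in the right panel (deposited ratio, log axis). In Alb::GC mice the 18S ratios were 1.26 to 7.24 on LFD and 0.09 to 0.22 on HFD.

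Between the diets genes of Alb::GC liver differed in both directions, with the circadian output genes Usp2, Wee1 and Dbp among the largest rises and the growth arrest gene Gadd45g and the stress chaperone gene Hspa1a among the largest falls. Of 22626 probe sets 1531 passed (6.77%), 1049 higher (4.64%) and 482 lower (2.13%) on HFD. With 1 probe set per gene, 965 of 12393 genes passed (7.79%), 686 higher (5.54%) and 279 lower (2.25%), and 473 of the rises and 224 of the falls were 2-fold or more. These shares of 5.54% and 2.25% are the background against which the counts per gene list below are read, and the median change of all genes was -0.03. The gene is represented by the probe set of the highest mean log2 ratio, a choice that can favour rises. Of the 465 risen genes with a further probe set, 99 had another that rose too, 5 had another that fell, and in 80 all others had the opposite sign. Of the 73 fallen genes with a further probe set, 16 had another that fell too, 1 had another that rose, and in 10 all others had the opposite sign. A call given below without mention of other probe sets may thus rest on 1 of several.

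These counts rest on few arrays. Without HFD Alb::GC replicate 2 the fit called 11 genes higher and 2 lower, and without HFD Alb::GC replicate 1 it called 58 and 23. Without LFD Alb::GC replicate 1 the counts were 136 and 17, and without LFD Alb::GC replicate 2 they were 187 and 32. Leaving out HFD wildtype replicate 1 or 2, which changes the spread but not the difference, left 231 and 80 or 204 and 73. All 965 called genes had an unadjusted p under 0.05 in each of the 8 fits without 1 array. Their sign could not turn, since their HFD and LFD arrays do not overlap. A fit to the 4 Alb::GC arrays alone called none after adjustment, with a smallest adjusted p of 0.0568, although 5974 probe sets had an unadjusted p under 0.05.

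Of the called genes 10 passed the threshold in each of the 8 fits without 1 array. B4galnt1, Dbp, Nnmt, Tef, Lpin1 and Per3 rose, and Gadd45g fell. The other 3, picked out after their values were seen, were Nmrk1, Lrp6 and Timm9. Nmrk1, a kinase of the NAD salvage route from nicotinamide riboside, stood at 0.63 and 0.72 on LFD and 6.61 and 6.71 on HFD, a change of 3.21 ± 0.20 (adjusted p = 0.00495). Lrp6, a Wnt co-receptor, stood at 0.39 and 0.42 against 3.14 and 3.76, a change of 2.94 ± 0.16 (adjusted p = 0.00484). Timm9, a chaperone of mitochondrial protein import, stood at 0.96 and 0.99 against 6.98 and 4.6, a change of 2.48 ± 0.25 (adjusted p = 0.00954). In all 10 the LFD and HFD arrays lay apart, as they did in every called gene; of all genes 29.5% had both HFD arrays above both LFD arrays and 30.9% had both below.

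With 1 probe set per gene the largest rise was that of B4galnt1, a glycosyltransferase of ganglioside synthesis, at 0.20 and 0.18 on LFD and 20.38 and 20.65 on HFD, a change of 6.42 ± 0.34 (adjusted p = 0.00484). Its other probe set changed by 0.04, so the rise stands on 1 probe set. Nnmt, which methylates nicotinamide, stood at 0.50 and 0.49 against 10.17 and 9.45, a change of 4.18 ± 0.31 (adjusted p = 0.00555). Upp2, a liver uridine phosphorylase, stood at 0.45 and 0.35 against 8.11 and 8.68, a change of 4.24 ± 0.53 (adjusted p = 0.0154), and its other probe set rose by 3.6. Wildtype mice showed changes of 6.49, 4.21 and 2.41 for these 3 genes. The remaining largest rises were Jade1 at 5.17, the interferon-inducible Mndal at 4.68, the mitochondrial carrier gene Slc25a51 at 4.55, Tiam2 at 4.47, Eloc at 4.30 and Pdzrn3 at 4.23. The 3 other Eloc probe sets changed by -0.20 to 0.17, so that rise too stands on 1 probe set, as does that of Tiam2, whose other probe set gave 0.51 (adjusted p = 0.709). The other Slc25a51 probe sets rose by only 1.25 and 1.18. Those of Jade1 changed by 2.32, 0.87 and -0.03, of which only the first passed. The other Mndal probe set rose by 6.49. Among these genes the 2 LFD arrays differed widely in Mndal, at 1.06 and 0.08, and in Eloc, at 0.47 and 0.03.

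The largest falls ended near 0. Gadd45g, a stress-induced gene of the growth arrest family, stood at 3.85 and 3.99 on LFD and 0.16 and 0.20 on HFD, a change of -4.11 ± 0.29 (adjusted p = 0.00555). Hspa1a, which encodes an inducible HSP70 chaperone, stood at 1.31 and 1.45 against 0.07 and 0.03, a change of -3.87 ± 0.44 (adjusted p = 0.0121). Nkx2-2 stood at 2.04 and 2 against 0.15 and 0.09, a change of -3.63 ± 0.45 (adjusted p = 0.0154), while its change in wildtype mice was 0.89 with an adjusted p of 0.221. In these 3 genes every LFD array lay above 1 and every HFD array at or below 0.2. The others were Figla at -3.75, Spon2 at -3.67, Muc4 at -3.63, Cd8b1 at -3.51, Nos1 at -3.47, Npas2 at -3.42, Gpr63 at -3.38, Nog at -3.36 and Snap91 at -3.35. The other Nos1 probe set gave -0.47 (adjusted p = 0.338). Values this near 0 make the size of a fall depend on the offset of 0.05.

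The circadian clock genes had the largest share of calls among the pathway lists. In the clock, the activators BMAL1 (Arntl), CLOCK and NPAS2 drive the period, cryptochrome and REV-ERB repressors and output factors such as DBP, TEF and HLF, and the repressor and output genes oscillate against Arntl and Npas2 in liver. Of 23 measured genes 11 rose and 3 fell, against 5.54% and 2.25% of all genes, and the list's median change was 0.94. Wildtype mice, in which 8.44% of all genes rose and 6.74% fell, had 13 rises and 1 fall in the same list, and all 11 genes that rose in Alb::GC mice rose in wildtype mice. Without LFD Alb::GC replicate 1 the list had 6 rises, without LFD replicate 2 it had 9, without HFD replicate 1 it had 5 and without HFD replicate 2 it had 3, and no fall passed in any of these fits.

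Among the output genes, Dbp stood at 0.28 and 0.22 on LFD and 7.68 and 7.96 on HFD, a rise of 4.72 ± 0.27 (adjusted p = 0.00484), and its other probe set rose by 5.57. Usp2, a clock-controlled ubiquitin protease, stood at 0.09 and 0.38 against 10.30 and 9.84, a rise of 5.37 ± 0.71 (adjusted p = 0.0171). Wee1, a cell cycle kinase under clock control, stood at 0.37 and 0.24 against 10.71 and 14.39, a rise of 5.16 ± 0.50 (adjusted p = 0.00955). The second probe sets of Usp2 and Wee1 rose by 3.06 and 2.42. Tef, a PAR bZIP factor like Dbp, stood at 0.42 and 0.38 against 2.96 and 3.07, a rise of 2.77 ± 0.13 (adjusted p = 0.00484). Hlf, the third factor of that family, rose by 1.20 ± 0.12. LFD and HFD arrays were far apart in all 5 genes, and the LFD arrays of Usp2 differed most from each other.

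Among the repressors, Per2 stood at 0.51 and 0.70 on LFD and 3.86 and 3.85 on HFD, a rise of 2.59 ± 0.19 (adjusted p = 0.00555). Per3 stood at 0.55 and 0.56 against 3.12 and 3.37, a rise of 2.44 ± 0.14 (adjusted p = 0.00484). Nr1d2, which encodes REV-ERBβ, stood at 0.31 and 0.40 against 1.73 and 1.79, a rise of 2.17 ± 0.21 (adjusted p = 0.00955). Cry2 rose by 1.90. Outside the repressors, the kinase gene Csnk1d and the nuclear receptor gene Rora rose by 0.94 and 0.66. Per1, at 0.80 with an adjusted p of 0.137, and Nr1d1, at 1.76 with an adjusted p of 0.0756, did not pass. On the activator side Npas2 stood at 5.25 and 3.20 against 0.38 and 0.30, a fall of 3.42 ± 0.52 on the log2 scale (adjusted p = 0.0234), and its second probe set fell by 2.67. Arntl stood at 1.49 and 1.21 against 0.18 and 0.21, a fall of 2.51 ± 0.36 on the log2 scale (adjusted p = 0.0202). Nfil3, a repressor of the output genes, changed by -1.12 ± 0.24 (adjusted p = 0.0478), and Clock and Cry1 did not pass.

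**Figure D2:**
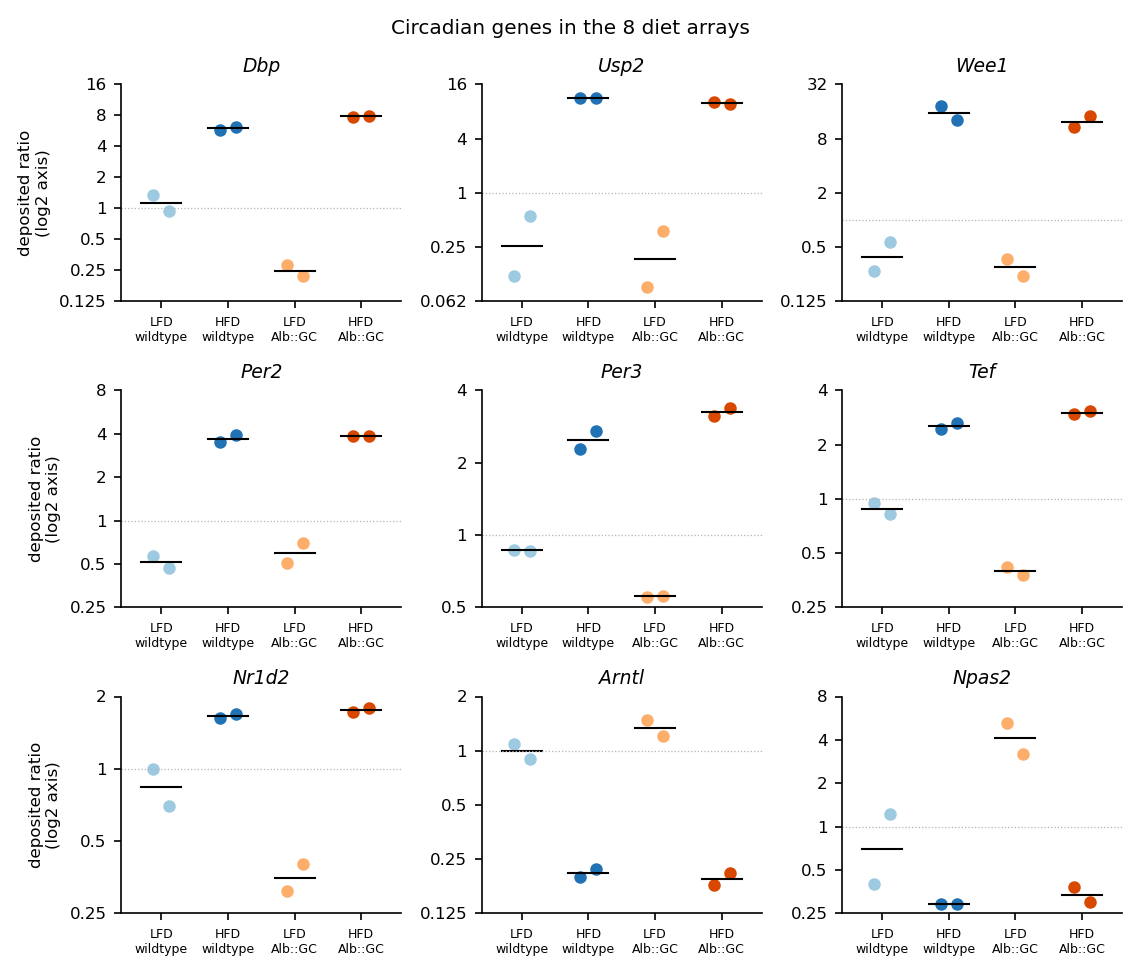
Deposited ratios (log2 axis) of 9 circadian genes in the 8 diet arrays, with 1 point per array and a bar at the geometric mean of the 2 arrays of a group. In Alb::GC mice Dbp stood at 0.28 and 0.22 on LFD and at 7.68 and 7.96 on HFD, while Arntl and Npas2 lay lower on HFD.

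The size of several clock changes was not the same number in both genotypes, but no difference passed the interaction test. Dbp changed by 4.72 in Alb::GC and 2.37 in wildtype mice, a difference of 2.35 ± 0.38 with an adjusted p of 0.142. On LFD, Dbp stood at 1.34 and 0.95 in wildtype mice and at 0.28 and 0.22 in Alb::GC mice, while on HFD the wildtype arrays stood at 5.82 and 6.24 and the Alb::GC arrays at 7.68 and 7.96. The difference for Tef was 1.30 ± 0.19 (adjusted p = 0.136) and that for Npas2 was -2.26 ± 0.74 (adjusted p = 0.357). For Per2, at -0.13 ± 0.26 (adjusted p = 0.883), both genotypes had almost the same HFD ratios.

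Because members of the clock list and of the ER chaperone list moved together, RefSeq promoters (build GRCm38.p6, 250 bases before to 50 bases after the start of a gene) were searched on both strands for the letters of known elements. The E-box CACGTG, bound by CLOCK and BMAL1, is held by 7.15% of 32851 promoters, the core TNGGTCA of the ROR and REV-ERB element by 11% and the D-box TTANGTAA, bound by DBP, TEF and HLF, by 2.32%. No 2 of these motifs overlap in the stretches shown. All shares here and below are of single promoters, whereas a gene is counted if any of its listed promoters holds the element. Of the 8 risen clock genes with a promoter, Tef held an E-box and Per3 held 2 D-boxes, starting 205 and 158 bases before its start. Of the 8 clock genes with a promoter that did not pass, 4 held an E-box. The ROR core was in Arntl and Nfil3 of the 3 fallen genes and in 3 of the 8 risen ones. Per3, Tef and Arntl are shown as an example each of the D-box, the E-box and the ROR core, which the capitals mark. Per3 and Tef hold the ROR core as well, in lower case in the stretch of Per3 and in the promoter of Tef that is not shown, so this core is found in risen and fallen genes alike. For Tef and Arntl the first of 2 listed promoters is shown.
Per3, chr4:151044616-151044915, minus strand: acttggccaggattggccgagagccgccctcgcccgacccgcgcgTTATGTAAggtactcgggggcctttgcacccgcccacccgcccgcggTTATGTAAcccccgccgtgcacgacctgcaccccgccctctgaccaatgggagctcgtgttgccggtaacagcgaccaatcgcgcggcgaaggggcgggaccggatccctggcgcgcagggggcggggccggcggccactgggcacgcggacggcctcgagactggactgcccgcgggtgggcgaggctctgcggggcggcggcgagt
Tef, chr15:81802423-81802722, plus strand: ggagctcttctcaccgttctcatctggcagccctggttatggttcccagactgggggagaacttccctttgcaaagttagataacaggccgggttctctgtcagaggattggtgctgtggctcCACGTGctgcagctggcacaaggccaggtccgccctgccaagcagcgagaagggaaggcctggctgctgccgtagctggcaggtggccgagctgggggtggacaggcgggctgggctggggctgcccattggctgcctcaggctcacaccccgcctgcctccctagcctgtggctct
Arntl, chr7:113207215-113207514, plus strand: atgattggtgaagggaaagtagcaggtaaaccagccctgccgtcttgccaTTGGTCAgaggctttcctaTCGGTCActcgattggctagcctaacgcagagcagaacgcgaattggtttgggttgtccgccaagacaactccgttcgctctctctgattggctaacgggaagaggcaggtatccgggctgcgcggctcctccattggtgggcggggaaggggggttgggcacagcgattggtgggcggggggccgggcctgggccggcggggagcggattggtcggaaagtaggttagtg

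Several genes for protein folding in the ER rose. Of 25 measured genes for ER folding and degradation 7 rose and none fell, against 5.54% of all genes rising, and 20 of the 25 had a positive change with a median of 0.48. Hspa5, the gene of the master ER chaperone BiP, stood at 0.72 and 0.85 on LFD and 1.53 and 1.60 on HFD, a rise of 0.96 ± 0.17 (adjusted p = 0.0332). Hsp90b1, which encodes the chaperone GRP94, stood at 0.79 and 1 against 1.96 and 2.14, a rise of 1.16 ± 0.17 (adjusted p = 0.0213). Dnajc3, a cochaperone of BiP, stood at 0.83 and 0.95 against 3.56 and 3.78, a rise of 1.99 ± 0.20 (adjusted p = 0.00955), and 2 of its 4 other probe sets rose. Each of the 3 genes had its lowest HFD array above its highest LFD array. Sel1l, a scaffold of ER-associated degradation, rose by 2.24 ± 0.28, Creld2 by 1.53 ± 0.22, the oxidase gene Ero1b by 1.19 ± 0.13 and Manf by 1 ± 0.14. The lectin chaperone genes Calr and Canx, at -0.07 and 0.55, and Xbp1, at 0.45, did not pass.

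Of the 7 risen genes, 6 rose in wildtype mice too, and Ero1b had a change of 0.28 there, with an interaction of 0.90 ± 0.19 (adjusted p = 0.198). The other 2 Ero1b probe sets did not pass. Without HFD Alb::GC replicate 2 no ER gene passed, and without any other single Alb::GC array 1 did. The ER stress element, CCAAT and CCACG with 9 bases of any kind between them, is known to be bound by ATF6 with the CCAAT factor NF-Y and is held by 0.119% of promoters. It was present in 5 of the 6 risen ER genes with a promoter (Hspa5, Hsp90b1, Dnajc3, Creld2 and Ero1b) and in 5 of the 15 members that did not pass (Calr, Canx, Pdia6, Derl3 and Syvn1), so members of both sets hold it. The promoters of Hspa5, Hsp90b1, Dnajc3 and Creld2 are shown as examples of that shared element, in capitals. It starts 65 bases before the start of Hspa5, 105 before that of Dnajc3 and 126 before that of Creld2, and it occurs at 212 and at 107 bases before that of Hsp90b1.
Hspa5, chr2:34771840-34772139, plus strand: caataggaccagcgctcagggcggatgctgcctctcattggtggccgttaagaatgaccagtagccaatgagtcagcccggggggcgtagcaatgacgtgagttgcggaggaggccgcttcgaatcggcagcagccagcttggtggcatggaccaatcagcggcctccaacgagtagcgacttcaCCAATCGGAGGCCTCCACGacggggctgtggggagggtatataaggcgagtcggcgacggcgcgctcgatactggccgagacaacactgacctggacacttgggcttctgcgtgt
Hsp90b1, chr10:86705395-86705694, minus strand: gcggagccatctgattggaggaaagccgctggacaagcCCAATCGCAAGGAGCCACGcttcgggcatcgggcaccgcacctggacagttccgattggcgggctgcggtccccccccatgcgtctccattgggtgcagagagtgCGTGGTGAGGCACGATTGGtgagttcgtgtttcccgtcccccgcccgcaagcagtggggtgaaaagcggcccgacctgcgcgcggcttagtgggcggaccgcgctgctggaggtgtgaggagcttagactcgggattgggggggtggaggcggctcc
Dnajc3, chr14:118937682-118937981, plus strand: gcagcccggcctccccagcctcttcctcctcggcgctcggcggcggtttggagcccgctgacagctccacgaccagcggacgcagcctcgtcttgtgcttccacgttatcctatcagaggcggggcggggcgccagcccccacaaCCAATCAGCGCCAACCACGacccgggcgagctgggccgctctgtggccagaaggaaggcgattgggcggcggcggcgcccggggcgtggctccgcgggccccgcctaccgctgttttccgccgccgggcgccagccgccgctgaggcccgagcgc
Creld2, chr15:88819396-88819695, plus strand: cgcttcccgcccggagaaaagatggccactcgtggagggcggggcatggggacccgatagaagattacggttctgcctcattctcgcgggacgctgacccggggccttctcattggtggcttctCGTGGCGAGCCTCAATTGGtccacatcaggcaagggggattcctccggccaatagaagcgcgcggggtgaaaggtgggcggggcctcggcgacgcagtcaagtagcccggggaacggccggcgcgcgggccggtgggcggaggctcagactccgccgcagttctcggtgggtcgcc

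Among the stress-response genes downstream of ATF4, 1 of 23 rose and 2 fell, so that 13% were called against 7.79% of all genes, and the list's median was -0.25. The largest change in the list, 2.98, was that of a gene that did not pass. Cth, which makes cysteine from cystathionine, stood at 0.58 and 0.65 on LFD and 1.81 and 1.73 on HFD, a rise of 1.45 ± 0.18 (adjusted p = 0.0149). Ddit3, the gene of the stress factor CHOP, stood at 2.21 and 1.32 against 0.74 and 0.66, a change of -1.23 ± 0.27 (adjusted p = 0.0496). Mthfd2, a mitochondrial folate enzyme, stood at 1.19 and 1.24 against 0.55 and 0.54, a change of -1.09 ± 0.21 (adjusted p = 0.0366), and its second probe set fell by 1.69. LFD arrays of Ddit3 differed more from each other than its HFD arrays did. The wildtype list had 5 rises and no fall, where 8.44% of all genes rose and 6.74% fell. Without any single Alb::GC array other than LFD replicate 2 none of these 3 passed, and without LFD replicate 2 only Cth did.

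The genes of the eIF2α switch itself did not pass. Ppp1r15a stood at 1.24 and 1.51 on LFD and 0.80 and 0.72 on HFD, a change of -0.81 ± 0.23 (adjusted p = 0.0854). Eif2ak3 changed by -0.32 ± 0.18 (adjusted p = 0.294). For Atf4 the representing probe set changed by -0.27 ± 0.27 (adjusted p = 0.554), and the other 2 by 0.44 and -0.79. The Atf4 value was 0.11 without LFD Alb::GC replicate 2. The probe set of Ppp1r15a does not say whether it detects the transgene's fragment, so its ratio is not a check of the transgene.

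Amino acid genes held 3 rises and no fall among 19, or 15.8% called against 7.79% of all genes. The list's median was 0.08, and 8 of the 19 had a negative change. Slc7a2, a transporter of cationic amino acids, stood at 0.47 and 0.64 on LFD and 4.03 and 3.93 on HFD, a rise of 2.75 ± 0.23 (adjusted p = 0.00754), with both other probe sets higher as well. The aminotransferase genes Got1 and Gpt2 rose by 2.09 ± 0.33 and 1.41 ± 0.29. Wars was the single rise among 15 aminoacyl-tRNA synthetases, at 1.02 ± 0.22 (adjusted p = 0.0468), and its 3 other probe sets did not pass.

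Cholesterol synthesis genes lay lower on HFD. The pathway runs from acetyl units through mevalonate, squalene and lanosterol, under the transcription factor SREBP2, and its genes are known to fall when the cell is sterol-replete. Of 20 measured genes none rose and 6 fell (2.25% of all genes fell), 19 of 20 had a negative change, and the median was -0.91. Msmo1, a sterol methyl oxidase, stood at 0.84 and 1.59 on LFD and 0.26 and 0.22 on HFD, a change of -2.06 ± 0.41 (adjusted p = 0.0411). Fdps, which makes farnesyl diphosphate, stood at 1.22 and 1.73 against 0.56 and 0.41, a change of -1.51 ± 0.28 (adjusted p = 0.0353). Mvd, the mevalonate diphosphate decarboxylase gene, stood at 1.03 and 1.23 against 0.43 and 0.30, a change of -1.52 ± 0.29 (adjusted p = 0.0382), and its other probe set fell by 2.25. The other Fdps probe set gave -0.56. HFD arrays lay below LFD arrays in each, and LFD replicate 2 was the higher LFD array in all 3. Nsdhl, Tm7sf2 and Srebf2 fell by 1.37, 1.01 and 0.95 on the log2 scale. Sqle, at -2.16 (adjusted p = 0.0551), and Hmgcs1, at -1.13 (adjusted p = 0.0601), did not pass. In wildtype mice 6 genes fell too, 4 of them shared.

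Without LFD Alb::GC replicate 1 a single cholesterol gene passed, and without any other single Alb::GC array none did, while the list's median stayed between -1.21 and -0.78. The sterol element TCACNCCAC is held by 1.24% of promoters. It was found in none of the 5 fallen genes with a promoter and in 1 of the 11 that did not pass, which says only that these letters are not in the windows searched.

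Genes of fatty acid and triglyceride synthesis mostly did not pass in Alb::GC mice. Of 26 measured genes 2 rose and 1 fell, with a median of -0.03, whereas in wildtype mice 10 rose and none fell, with a median of 1.03. Of all genes 8.44% rose and 6.74% fell in wildtype mice, against 5.54% and 2.25% in Alb::GC mice. The counts of the 2 genotypes therefore cannot be compared directly. Lpin1, a phosphatidate phosphatase of triglyceride synthesis, stood at 0.91 and 0.98 on LFD and 6.08 and 5.72 on HFD, a rise of 2.58 ± 0.16 (adjusted p = 0.00495), and its other probe set rose by 1.95. Lpin2 stood at 0.91 and 0.99 against 1.60 and 2.30, a rise of 0.98 ± 0.18 (adjusted p = 0.0363). The other Lpin2 probe sets, at 0.26 and 0.83, did not pass. Acacb, the mitochondrial acetyl-CoA carboxylase whose product restrains fat oxidation, stood at 1.89 and 1.12 against 0.11 and 0.14, a change of -3.11 ± 0.59 (adjusted p = 0.0363). The Acacb change in wildtype mice was -0.41 with an adjusted p of 0.655, and the interaction of -2.70 ± 0.83 did not pass (adjusted p = 0.339). Of these 3, Lpin1 alone passed without each single array.

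The core lipogenic enzymes showed ratios near 1 on both diets in Alb::GC mice. Fasn, the fatty acid synthase gene, stood at 1.22 and 1.04 on LFD and 1.08 and 0.96 on HFD, a difference of -0.14 ± 0.24 (adjusted p = 0.736). Scd1, the main liver desaturase gene, stood at 1.60 and 1.09 against 0.91 and 1.12, a difference of -0.37 ± 0.27 (adjusted p = 0.4), and Me1 gave -0.36 ± 0.14 (adjusted p = 0.150). Their diet groups overlap or nearly meet in Alb::GC mice. In wildtype mice Fasn, Scd1 and Me1 rose by 1.36, 2.02 and 0.79. The interaction was -1.5 ± 0.34 for Fasn (adjusted p = 0.220), -2.39 ± 0.38 for Scd1 (adjusted p = 0.141) and -1.15 ± 0.19 for Me1 (adjusted p = 0.142). Over the list the change was the more positive one in wildtype mice in 23 of 26 genes, against 43.1% of all genes, and 10 had an interaction p under 0.05 before adjustment, against 11.5% of all genes. These 3 enzymes were picked out after their values were seen, and they do not stand for the whole list. Its largest positive change in Alb::GC mice, 3.08, was that of the lipogenesis regulator gene Thrsp. Thrsp did not pass (adjusted p = 0.0723), but did without the mean-dependent prior (adjusted p = 0.0267), as described below with Cpt1a.

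Lipid droplet and uptake genes behaved likewise. Of 22 measured genes none rose and 2 fell in Alb::GC mice, or 9.09% called, near the 7.79% of all genes. In wildtype mice, where 15.2% of all genes were called, 9 rose and 1 fell. The change was the more positive one in wildtype mice in 17 of 22 genes, against 43.1% of all genes. Of the 22, 7 had an interaction p under 0.05 before adjustment, against 11.5% of all genes. Plin2, which coats lipid droplets, stood at 1.12 and 1.37 on LFD and 0.68 and 0.65 on HFD, a change of -0.85 ± 0.17 (adjusted p = 0.0416). Fabp5, a fatty acid binding protein gene, stood at 1.42 and 3.83 against 0.26 and 0.28, a change of -2.9 ± 0.45 (adjusted p = 0.0243), and its other probe set fell by 3.01. The 2 LFD arrays of Fabp5 differed widely, but both lay above the HFD arrays. Without LFD Alb::GC replicate 1 a single gene of the list passed, and without each other Alb::GC array none did.

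Cidec, whose product enlarges lipid droplets, stood at 0.88 and 0.56 on LFD and 0.92 and 0.89 on HFD in Alb::GC mice, a difference of 0.34 ± 0.26 (adjusted p = 0.437). In wildtype mice it stood at 1.08 and 0.79 against 15.87 and 14.73, and the interaction was -3.63 ± 0.37 (adjusted p = 0.0890). Cd36, a fatty acid uptake receptor gene chosen after its values were seen, stood at 0.97 and 0.72 against 1.99 and 1.03 in Alb::GC mice, with wildtype HFD arrays at 13.59 and 13.42. Pparg, a nuclear receptor of fat storage chosen in the same way, stood at 0.50 and 0.59 against 0.54 and 0.26, with wildtype HFD arrays at 6.13 and 6.02. Their interactions were -3.67 ± 0.56 (adjusted p = 0.139) and -2.49 ± 0.50 (adjusted p = 0.192). In all 3 genes the 2 wildtype HFD arrays lay above the other 6 diet arrays.

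**Figure D3:**
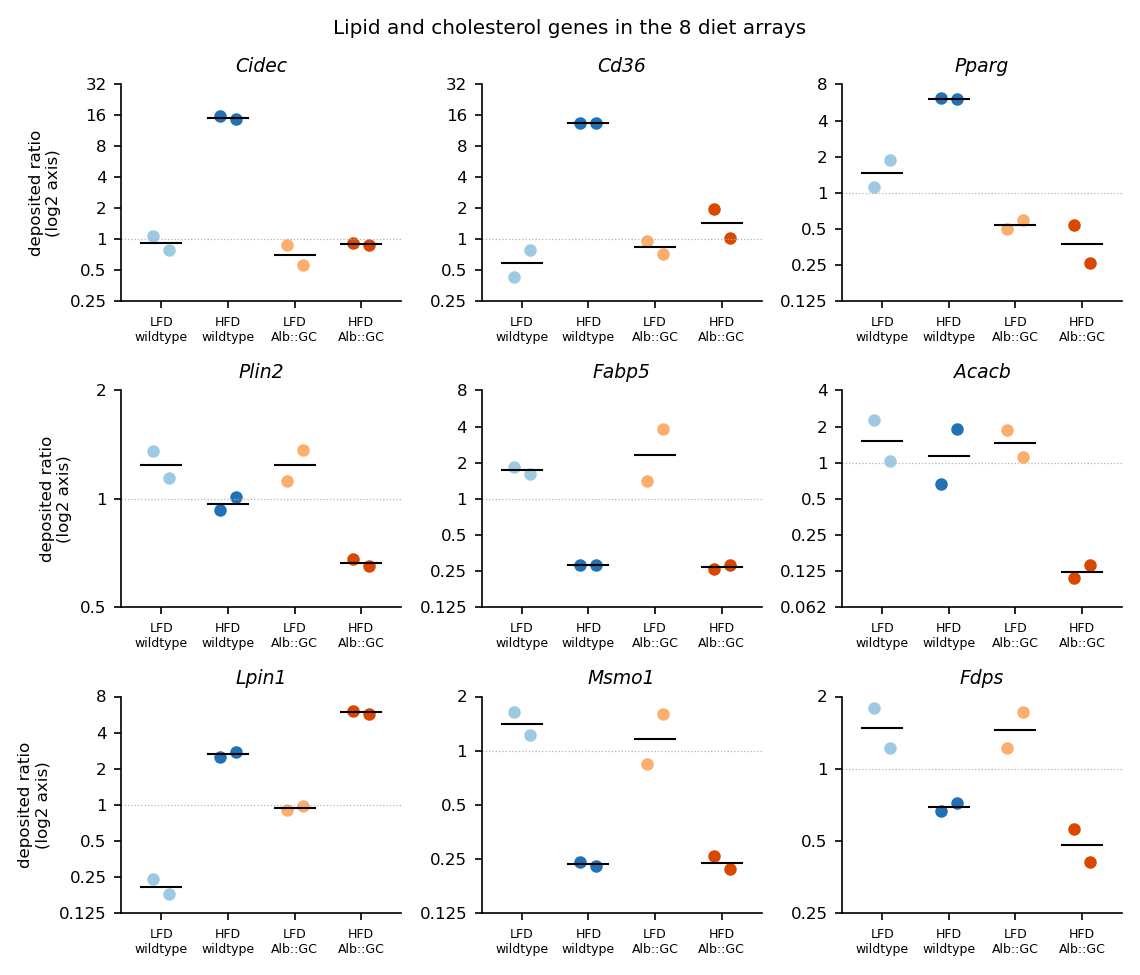
Deposited ratios (log2 axis) of 9 lipid and cholesterol genes in the 8 diet arrays, with 1 point per array and a bar at the geometric mean of the 2 arrays of a group. In the HFD arrays Cidec stood at 0.92 and 0.89 in Alb::GC mice and reached 15.87 and 14.73 in wildtype mice, while Msmo1 and Fdps were lower on HFD in both genotypes.

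Fat oxidation genes gave 2 rises and no fall among 31, or 6.45%, near the 7.79% of all genes that passed. Ppargc1a, the coactivator PGC-1α of mitochondrial and fasting genes, stood at 0.78 and 0.74 on LFD and 2.23 and 2.36 on HFD, a rise of 1.53 ± 0.26 (adjusted p = 0.0295), and its 4 other probe sets were positive but did not pass. Aldh3a2, a fatty aldehyde dehydrogenase gene, rose by 0.66 ± 0.13 (adjusted p = 0.0407). Cpt1a, which admits long fatty acids to mitochondria, stood at 0.91 and 1.05 against 7.90 and 6.72, a difference of 2.84 ± 0.67 (adjusted p = 0.0585). Its 2 groups lie far apart. The variance model ties the prior spread to the mean ratio, and at the mean log2 value of Cpt1a, 1.42, the prior standard deviation was 0.996, against a median of 0.232 over all probe sets. Without that prior Cpt1a had a standard error of 0.32 and an adjusted p of 0.0162. Thrsp, a lipogenesis regulator gene, stood at 1.04 and 0.46 against 5.68 and 6.84, with a prior standard deviation of 1.14, and passed only without that prior (adjusted p = 0.0267, and 0.0723 with it). In all, 78 genes passed only without the mean-dependent prior and 238 only with it.

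Bile acid genes rose in several roles. Of 24 measured genes 7 rose and none fell, with a median of 0.53, while 5 rose and 4 fell in wildtype mice. Of all genes 5.54% rose and 2.25% fell in Alb::GC mice, and 8.44% rose and 6.74% fell in wildtype mice. Cyp7a1, the rate-limiting enzyme of bile acid synthesis, stood at 0.40 and 0.35 on LFD and 1.66 and 2.06 on HFD, a rise of 2.16 ± 0.34 (adjusted p = 0.0254), and its other probe set rose by 2.64. Abcc2, a canalicular export pump gene, stood at 0.84 and 0.81 against 3.63 and 4.42, a rise of 2.21 ± 0.25 (adjusted p = 0.0121). Slco1b2, an uptake transporter gene, stood at 0.73 and 0.80 against 3.26 and 4.23, a rise of 2.21 ± 0.22 (adjusted p = 0.00955), with 1 of its 4 other probe sets also higher. Synthesis and transport were thus both represented among the rises. Akr1d1 rose by 1.82 ± 0.39, Nr1h4, the gene of the bile acid receptor FXR, by 1.45 ± 0.17, Scp2 by 1.07 ± 0.19 and the sterol exporter gene Abcg8 by 0.98 ± 0.18. In wildtype mice Cyp7a1 changed by 0.30 with an adjusted p of 0.575, and the interaction of 1.86 ± 0.48 did not pass (adjusted p = 0.270). Without HFD Alb::GC replicate 2 no gene of the list passed, without LFD replicate 2 there were 2, and without LFD replicate 1 or HFD replicate 1 there was 1.

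Cytochrome P450 genes, which oxidise steroids and drugs, gave 5 rises and 1 fall among 32, or 18.8% called against 7.79% of all genes. Cyp2c50 stood at 0.72 and 0.74 on LFD and 2.14 and 2.11 on HFD, a rise of 1.48 ± 0.13 (adjusted p = 0.00754). Cyp3a13 rose by 1.82 ± 0.17 and Cyp39a1, a bile-acid-related hydroxylase gene, by 1.66 ± 0.30. Cyp26a1, which degrades retinoic acid, stood at 2.93 and 1.45 against 0.39 and 0.32, a change of -2.39 ± 0.43 (adjusted p = 0.0336). Cyp2c37, with a prior standard deviation of 9.99, stood at 0.81 and 0.67 against 21.09 and 18.03, the highest HFD ratios of the list, with a difference of 4.63 whose standard error was 6.04 and adjusted p 0.652 under the mean-dependent prior, and 0.22 and 0.00287 without it. Members of this family are close in sequence, and a probe set may bind several. Leaving out HFD replicate 1 or 2 left no P450 call, and leaving out LFD replicate 1 or 2 left 2.

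Sex-biased liver genes, which growth hormone pulses set through STAT5, gave few calls in Alb::GC mice. Of 16 male-biased genes none rose and 2 fell, with a median of 0.03, whereas in wildtype mice 12 fell and the median was -1.71. Of all genes 5.54% rose and 2.25% fell in Alb::GC mice, and 8.44% rose and 6.74% fell in wildtype mice. Elovl3, a fatty acid elongase gene, stood at 3.35 and 4.51 on LFD and 1.20 and 0.75 on HFD, a change of -1.98 ± 0.26 (adjusted p = 0.0171). Ugt2b38, a glucuronosyltransferase gene, stood at 3.50 and 6.13 against 0.57 and 0.59, a change of -2.89 ± 0.51 (adjusted p = 0.0318). Both fell in wildtype mice as well. Hsd3b5, a male-biased steroid dehydrogenase gene, stood at 1.05 and 1.36 against 0.95 and 1.26 in Alb::GC mice, and at 2.12 and 1.80 against 0.01 and 0.01 in wildtype mice. Its interaction of 4.94 ± 0.47 had an adjusted p of 0.0890, and 0.0379 without the mean-dependent prior. In 15 of the 16 genes the change was lower in wildtype mice, and 13 had an interaction p under 0.05 before adjustment, against 11.5% of all genes. Of 16 female-biased genes none passed in Alb::GC mice, and 7 rose and 1 fell in wildtype mice. Cyp17a1 came nearest, at 2.27 ± 0.51 (adjusted p = 0.0536), followed by Acot3 at 1.28 ± 0.39 (adjusted p = 0.101).

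**Figure D4:**
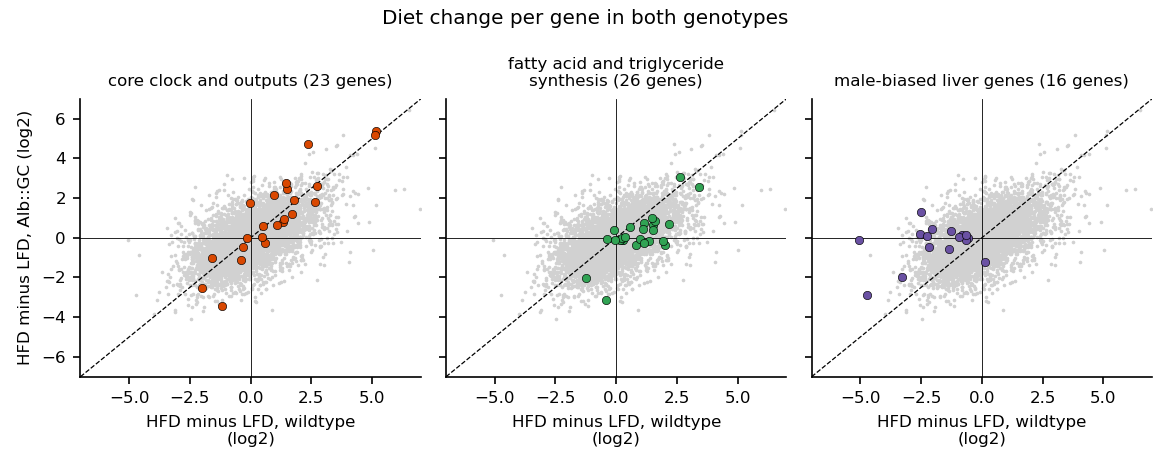
Change on HFD (log2) in wildtype mice (x axis) and Alb::GC mice (y axis) for all 12393 genes (grey) and the members of a list (coloured), with the dashed line at equal change. Of the lipid synthesis genes 23 of 26 lie below the line, and of the male-biased genes 15 of 16 lie above it.

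Genes of glucose handling and insulin signalling moved in both directions. Igfbp1, an insulin-repressed gene of a growth factor binding protein, stood at 1.48 and 1.44 on LFD and 0.16 and 0.16 on HFD, a change of -2.85 ± 0.41 (adjusted p = 0.0208). Gys2, the liver glycogen synthase gene, stood at 0.64 and 0.80 against 2.57 and 2.59, a rise of 1.78 ± 0.15 (adjusted p = 0.00754). Foxo1, a transcription factor restrained by insulin, stood at 0.99 and 0.79 against 2.59 and 2.9, a rise of 1.58 ± 0.19 (adjusted p = 0.0143), with its 3 other probe sets not passing and 1 of them negative. In these genes the 2 HFD arrays were close together. Among 19 glucose genes 2 rose and 2 fell, the second fall being Ppp1r3c at -0.81, and among 20 insulin genes 2 rose and 1 fell, with Foxo3 at 1.20. These calls were 21.1% and 15% of the 2 lists, against 7.79% of all genes. The other Foxo3 probe sets, at 0.14 and 0.25, did not pass. The 3 calls of Igfbp1, Gys2 and Foxo1 were shared with wildtype mice.

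Of 26 liver transcription factors and receptors 5 rose and none fell, against 5.54% of all genes rising, and 22 had a positive change. Onecut1, which encodes HNF6, stood at 1.27 and 0.93 on LFD and 3.75 and 4.19 on HFD, a rise of 1.82 ± 0.23 (adjusted p = 0.0157), while its wildtype change was 0.27. Hnf4a, the central factor of hepatocyte identity, stood at 0.59 and 0.94 against 2.05 and 1.77, a rise of 1.30 ± 0.26 (adjusted p = 0.0421), and 1 of its 3 other probe sets rose. Nr3c1, the glucocorticoid receptor gene, rose by 1.29 ± 0.21 and Cebpa by 1 ± 0.22, and the fifth was Nr1h4. The interaction for Onecut1, 1.55 ± 0.32, did not pass (adjusted p = 0.205). Without either HFD array no gene of this list passed.

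Of 22 heat shock genes 3 rose and 2 fell, or 22.7% called against 7.79% of all genes. The inducible Hspa1a and Hspa1b fell, Hspa1b by 2.27 ± 0.38 on the log2 scale from 1.29 and 1.92 to 0.37 and 0.22, with both of its other probe sets lower. The constitutive Hspa8 stood at 0.54 and 0.85 against 3.12 and 2.47, a rise of 1.96 ± 0.27 (adjusted p = 0.0184), but its 3 other probe sets changed by -0.57 to 0.48 and did not pass. The cochaperone gene Dnaja1 rose by 0.76 and Hspa4l by 0.71. Hspa1a and Hspa1b are near-identical copies, so their probe sets may share signal. The heat shock element, GAA, TTC and GAA with 2 bases of any kind in each gap, is held by 0.603% of promoters and was in none of the 4 changed genes with a promoter and in 4 of the 15 that did not pass. All 5 calls were made in wildtype mice too, among 5 rises and 3 falls there.

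Growth and stress regulators were higher on LFD in several cases. Myc stood at 5.11 and 4.16 on LFD and 0.75 and 0.52 on HFD in Alb::GC mice, a change of -2.79 ± 0.30 (adjusted p = 0.0106), and was the single call among 19 immediate early genes. Cdkn1a, the gene of the cell cycle inhibitor p21, stood at 2.26 and 3.14 against 0.59 and 0.28, a change of -2.56 ± 0.34 (adjusted p = 0.0173), and its other probe set fell by 4.36. Wildtype LFD arrays of Myc and Cdkn1a lay at 0.92 and 1.11 and at 0.66 and 0.59. Their interactions were -2.05 ± 0.42 (adjusted p = 0.198) and -3.20 ± 0.48 (adjusted p = 0.139). Besides Gadd45g and Cdkn1a, the p53 and growth arrest list held 2 rises, Ccng1 at 1.5 and Sesn1 at 0.89, among 14 genes. In all 28.6% of that list were called, against 7.79% of all genes. Its largest positive change, 2.98, was that of a gene that did not pass. For Sesn1, 1 of the other probe sets gave -0.43. The other Ccng1 probe sets, at 0.33 and 0.55, did not pass. Of 26 cell cycle genes 3 rose and none fell, or 11.5% called against 7.79% of all genes. Ube2c, a ubiquitin enzyme of mitosis, stood at 0.13 and 0.24 against 1.68 and 1.84, a rise of 2.98 ± 0.34 (adjusted p = 0.0121), and Tk1 and Mcm4 rose by 1.45 and 0.96.

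Acute phase and immune genes gave scattered calls. Orm3, an orosomucoid gene, stood at 0.37 and 0.47 on LFD and 2.31 and 2.64 on HFD, a rise of 2.43 ± 0.46 (adjusted p = 0.0359). Mt1, a metallothionein gene, stood at 0.98 and 1.20 against 0.37 and 0.35, a change of -1.47 ± 0.25 (adjusted p = 0.0299), though its other probe set gave 0.75. Cxcl1, a neutrophil chemokine gene, stood at 0.27 and 0.34 against 1.84 and 1.99, a rise of 2.47 ± 0.16 (adjusted p = 0.00495), with wildtype HFD arrays at 5.35 and 6.43. Cxcl1 was the single call among 20 chemokine and cytokine genes. Stat3 rose by 0.58 ± 0.12, with its other probe sets at -0.87 and 0.63, and Il6ra by 1.17 ± 0.18, with its other probe set at 0.04. Apcs fell by 1.63 on the log2 scale. In all, 4 acute phase genes rose and 2 fell among 28, or 21.4% called against 7.79% of all genes. Of 24 interferon genes Oasl2 rose by 0.92 and Ifi47 and Psmb8 fell by 1.24 and 0.90 on the log2 scale. H2-Eb1 rose by 1.39, whereas H2-D1 gave 2.07 on its representing probe set, -3.14 on another that also passed and -0.78 to -0.01 on the other 7, so no direction is given for it.

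Lists of general metabolism, secretion and structure are read against the 7.79% of all genes that passed. Oxidative phosphorylation had 4 rises and no fall among 72 genes, with a median of -0.11, and Uqcr10, at 3.05 ± 0.27 (adjusted p = 0.00754), was the largest, with its other 2 probe sets at -0.42 and 0.80, of which the second passed. The citric acid cycle list gave 3 rises among 18, or 16.7% (Idh1, Ogdh and Pdhb, at 0.86, 0.74 and 0.65), with the other probe sets of Idh1 and Pdhb at 0.09 and 0.20. The urea cycle list gave 2 among 11, or 18.2% (Oat at 1.11 and Otc at 1.08), with the other Otc probe sets at 0.46 and 0.39. Ribosomal protein genes gave 1 rise, Rps9, whose 2 other probe sets changed by -0.08 and -0.56, and 1 fall, Rpl37a, among 44. Proteasome genes gave 2 of each among 38. Of 21 apolipoprotein genes none passed, Mttp being nearest at 0.88 ± 0.25 (adjusted p = 0.0881). Conjugation enzymes gave 2 rises (Sult1d1 and Papss2) and 1 fall (Gsta2) among 31, the NRF2 list 1 fall (Gclc, at -0.80) among 16, complement and coagulation 2 rises (Hc and F5) among 33, matrix genes 2 rises (Timp3 and Col5a1) and 1 fall (Mmp2) among 31, and cytoskeleton genes 1 fall (Tubb2a) among 22. Gclc rose by 0.89 in wildtype mice, with an interaction of -1.69 ± 0.19 (adjusted p = 0.103), while its other probe set gave 0.10 in Alb::GC mice and an interaction of -0.85. The other probe sets of F5, at 0.18, and of Timp3, at 0.28, 0.64 and 0.15, did not pass. The other 2 Col5a1 probe sets gave -0.72 and -0.82, the first of them past the threshold, so Col5a1 has no settled direction.

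**Figure D5:**
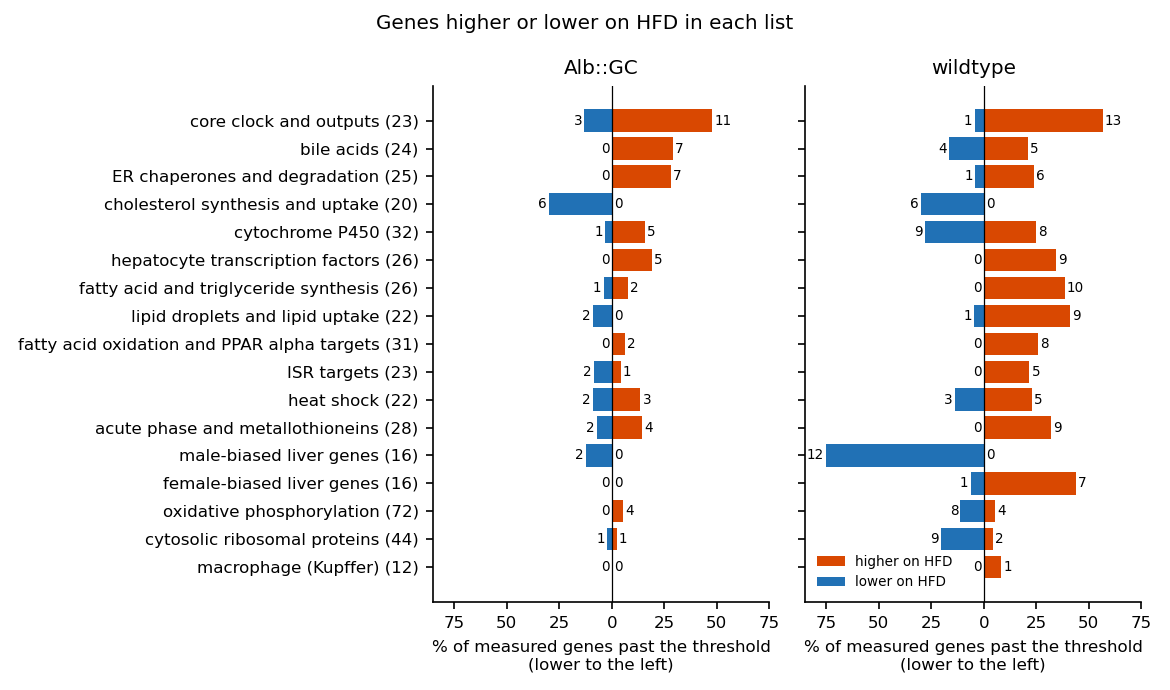
Share of measured genes past the threshold in 17 lists, higher on HFD to the right and lower to the left, in Alb::GC (left panel) and wildtype mice (right panel), with the count at each bar and the number measured in brackets. In Alb::GC mice 11 clock genes rose and 3 fell, 7 bile acid and 7 ER genes rose, and 6 cholesterol genes fell.

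Markers of other liver cells gave few calls. None of 12 macrophage, 9 endothelial, 10 stellate, 8 lymphocyte, 4 adipocyte or 6 pancreas markers passed in Alb::GC mice. Cd163 and Cd5l came nearest among macrophage markers, at 1.08 ± 0.28 (adjusted p = 0.0709) and 0.75 ± 0.20 (adjusted p = 0.0755). The mean log2 ratio of the macrophage list was -0.20 and 0.29 on LFD and 0.64 and -0.08 on HFD, so the diet groups overlapped. Among the 4 neutrophil markers Mpo fell by 1.07 on the log2 scale, and all 4 had a negative change, with a median of -0.83. Their median in wildtype mice was 1.28, with 2 rises. Of these markers 3 had an interaction p under 0.05 before adjustment, and none after it. Among 3 erythroid markers Alas2 rose by 2.26 and Hba-a1 fell by 2.32. Among 4 cholangiocyte markers Sox9 gave 2.66 on 1 probe set and -0.51 on the other, while the other 3 markers had negative changes and the list's median was -0.65. Of 13 hepatocyte markers Hnf4a and Otc rose, but 8 had a negative change and the list's median was -0.05. The other Otc probe sets, at 0.46 and 0.39, did not pass. In bulk liver fewer cells of a type and less RNA per cell cannot be told apart, and the part of other cells in the results above was not tested.

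The calls of the 2 genotypes overlapped in part. Of the 686 genes that rose in Alb::GC mice, 451 (65.7%) rose in wildtype mice, which is 43.1% of the wildtype rises, 228 were not called there and 7 fell there. Of the 279 that fell, 128 (45.9%) fell in wildtype mice, which is 15.3% of the wildtype falls, 146 were not called and 5 rose. The 2 comparisons share no array but share 1 estimate of the spread. Across 12393 genes, which are not independent, the 2 changes correlated at 0.592. Wildtype mice had 1046 genes higher (8.44%) and 835 lower (6.74%), and 1804 probe sets higher (7.97%) and 1499 lower (6.63%).

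The test of the difference between genotypes, the diet by genotype interaction, called none of 22626 probe sets in limma at an adjusted p under 0.05, with a smallest adjusted p of 0.0870, while 2517 (11.1%) had an unadjusted p under 0.05. Without the mean-dependent prior 5 passed. Largest by p with a more positive change in Alb::GC mice were Hsd3b5, Chek1, Gna14, Lsm7 and Cela1, and with a more negative one Sh3kbp1, Tceal8, Vegfb, Cidec and Stat3, all with adjusted p between 0.0870 and 0.0890. Sh3kbp1, an adaptor of receptor uptake, stood at 1.98 and 1.82 on LFD and 0.54 and 0.37 on HFD in Alb::GC mice and at 0.62 and 0.63 against 2.01 and 2.33 in wildtype mice. Vegfb, a growth factor linked to fatty acid transport, stood at 1.61 and 1.45 against 0.69 and 0.66 and at 0.95 and 1.02 against 1.75 and 1.67. Chek1, a DNA damage kinase, stood at 0.64 and 0.45 against 1.61 and 1.13 and at 2.71 and 2.11 against 0.39 and 0.40. In these 3 genes the genotypes moved in opposite directions, each past the threshold of its own comparison, but the interaction did not pass. Of Sh3kbp1's other probe sets 1 was positive, and of Chek1's 2 were negative.

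The 5 interaction calls made without that prior were Hsd3b5, Esm1 and 1 probe set each of Ccdc80, Pafah1b1 and Rbm39 other than the one that represents the gene. That of Ccdc80, a matrix protein gene, stood at 1.62 and 2.51 on LFD and 0.28 and 0.31 on HFD in Alb::GC mice and at 0.33 and 0.35 against 3.41 and 2.44 in wildtype mice, with an interaction of -5.50 (adjusted p = 0.044 without the prior and 0.087 with it), while its representing probe set had one of -0.66 (adjusted p = 0.529). Esm1, an endothelial proteoglycan gene, stayed between 0.11 and 0.17 in the Alb::GC arrays and reached 2.81 and 2.44 in HFD wildtype arrays. All 5 were chosen by that test, after the values were known.

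Genes that differed with AP20187 were taken from the other experiment, in which this compound activates the Fv2E-PERK kinase in TTR::Fv2E-PERK mice (4 treated against 4 untreated arrays). Of the 200 genes with the largest rises there, 28 (14%) rose and 8 (4%) fell on HFD in Alb::GC mice, with a median change of 0.19, against 5.54% and 2.25% of all genes. Of these 28 rises 7 were clock genes already described (Usp2, Wee1, Dbp, Per2, Per3, Cry2 and Rora), which leaves 21, and the 8 falls included Ddit3, Myc, Gadd45g and Cdkn1a. Of the 200 with the largest falls, 6 (3%) rose and 15 (7.5%) fell, with a median of -0.17. In wildtype mice, in which 8.44% of all genes rose and 6.74% fell, the raised set had 44 rises and 7 falls and a median of 0.39. The lowered set had 8 rises and 30 falls there and a median of -0.34. Fewer of all genes were called in Alb::GC mice, so the counts of the 2 genotypes cannot be compared directly. Both medians lay nearer 0 in Alb::GC mice, a difference that was not tested.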

How the data were processed

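Liver RNA of 8 diet arrays, 2 per group, is used, and the 8 arrays of the TTR::Fv2E-PERK experiment only to rank genes. The authors deposited 1 ratio for each probe set and array, a unit taken from the values. What it is relative to, and the software behind it, are not given in the sources used. RNA was labelled as biotin cRNA with an Affymetrix kit, per the labels' protocols. Groups came from the labels.

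The 64 control probe sets were left out and 0.05 was added before log2. limma 3.58.1 in R 4.3.3 (plots with matplotlib 3.10.9 in Python 3.11.15) fitted the 8 arrays with 4 group means, leaving 4 residual degrees of freedom plus 2.3 from a mean-dependent prior. Of the probe sets 20380 had 1 symbol in the platform annotation, 1555 none and 691 several, which named no gene. The number of arrays limits the precision. The steps were tested on simulated data.

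Named genes were the 12 largest rises and falls past the threshold with arrays apart, up to 4 passing members per list (or the 2 smallest p), the 5 smallest interaction p each way, Ppp1r15a, Eif2ak3 and Atf4; other genes were named after their values were seen. Members and lists were chosen with earlier results of these data known. Alternatives were the offset, quantile normalization, median centring, no mean-dependent prior, a minimum mean ratio, other probe sets, fewer arrays and smaller AP20187 sets.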

Additional observations from a re-analysis of the deposited data

How the results depend on the processing

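No called probe set changed to a call in the opposite direction under any alternative run. Offsets of 0.02 and 0.2, quantile normalization, median centring, no mean-dependent prior and a mean ratio of at least 0.5 gave 1382 to 1679 calls against 1531. With the 4 Alb::GC arrays alone 0 probe sets and 0 genes passed in either direction, and 957 passed in wildtype mice with their own 4. Without 1 array in turn the calls ranged from 14 to 1288 probe sets higher and 4 to 392 lower, from 11 to 818 genes higher and 2 to 222 lower, from 47 to 2590 probe sets in wildtype mice and from 0 to 0 for the interaction, which had 5 without the mean-dependent prior. Of the named genes 113 lost their call with the 4 arrays alone, and 108 without HFD Alb::GC replicate 2. With the probe set of smallest spread 540 genes rose and 335 fell, and the sign turned for H2-D1 (-0.53), Sesn1 (-0.43), Mttp (-0.22), Cox5a (-0.49), Psmc6 (-0.20), Rps9 (-0.56), Col5a1 (-0.72), Sox9 (-0.51) and Cd8a (-1.55), since other probe sets then stand for these genes. Atf4 was -0.64 without LFD Alb::GC replicate 1, 0.11 without LFD Alb::GC replicate 2 and -0.79 with the probe set of smallest spread, and the cause was not tested. The median of the AP20187-raised genes was 0.14 to 0.28 without 1 array and 0.25 after quantile normalization. That of the lowered genes was -0.20 to -0.16 without 1 array, -0.21 at an offset of 0.02, -0.12 at 0.2, -0.24 after quantile normalization, -0.14 after median centring and -0.23 with 100 genes each way. The causes of these shifts were not tested. No paired analysis was possible because the labels carry no replicate numbers shared between groups. The files hold no signal over background, so low values could not be filtered by detection.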
